A study of Homo sapiens with 32 samples.

Results

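A set of 9 genes of the unfolded protein response (UPR) were followed in HCT116 cells, a human colorectal carcinoma line, with and without tunicamycin. They were ERN1, EIF2AK3, ATF6, ATF6B, XBP1, MBTPS1, MBTPS2, FICD and CREB3L2. The 9 rows were found by mapping the Ensembl identifiers of the deposited count table to symbols, and they are 9 of its 60660 gene rows. All 9 passed the filter on low counts in every comparison.

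The UPR begins at 3 kinds of sensor in the membrane of the endoplasmic reticulum (ER). ERN1 (IRE1 alpha) is a kinase and ribonuclease that cuts an intron out of XBP1 mRNA in the cytosol, and the spliced mRNA encodes the active transcription factor. EIF2AK3 (PERK) is a kinase that phosphorylates the translation factor eIF2 alpha, while ATF6 and its relative ATF6B travel to the Golgi, where the site-1 protease MBTPS1 and the site-2 protease MBTPS2 release their transcription factor domain. CREB3L2 is another ER-tethered transcription factor that the same proteases cleave, and FICD is an ER enzyme that adds AMP to the chaperone BiP and removes it. Tunicamycin blocks N-linked glycosylation and thereby leaves misfolded glycoproteins in the ER.

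Poly(A) RNA had been sequenced in 32 libraries. All lines carried the doxycycline-inducible OsTIR1 transgene (Tet-OsTIR1-PURO), the parental cells included. Parental cells (2 samples) gave 4 libraries in DMSO and 4 in tunicamycin. IGF2BP3 knockout cells (clones A3, D12 and E4) and IGF2BP2 knockout cells (clones B7, F6 and G6) gave 6 libraries in DMSO and 6 in tunicamycin each, 2 per clone and treatment. The deleted genes code for related RNA-binding proteins. The clones were grown from sorted cells after transient transfection of a Cas9 plasmid. Clones A3 and E4 had the same guide and D12 another, and clones B7 and F6 shared a guide that G6 did not. Tunicamycin was given at 5 µg/mL for 4 h to the IGF2BP3 knockout clones and parental cells, with DMSO as the control. Neither value is stated for clones B7, F6 and G6 in the sources used here. Nothing in the labels says that the 2 libraries of a line came from separate cultures, so p-values measure the spread between these libraries, which may be technical.

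Total counts ran from 16651438 to 24913021 per library. Of the epithelial markers, EPCAM (at least 189 CPM, counts scaled to a common library size), CDH1, KRT8, KRT18, KRT19 and CDX2 were present in all 32 libraries, while CDX1, VIL1 and LGR5 did not exceed 0.191 CPM in any. Markers of leukocytes (PTPRC), endothelium (PECAM1) and liver (ALB) did not exceed 0.144 CPM. Of the fibroblast markers, COL1A2 did not exceed 0.0525 CPM, while COL1A1 ranged from 4.57 to 12.2 CPM. In DMSO, IGF2BP3 mRNA stood at 27.5 ± 10.7 CPM (SD, n = 6) in IGF2BP3 knockout libraries and at 76.5 ± 5.38 CPM (SD, n = 4) in parental ones. IGF2BP2 mRNA stood at 86.5 ± 4.80 CPM (SD, n = 6) in IGF2BP2 knockout libraries and at 176 ± 15.6 CPM (SD, n = 4) in parental ones. The 2 control libraries of clone G6 have conflicting labels, control in the title and tunicamycin in the treatment field. The title was followed, and their FICD levels of 5.03 and 5.33 CPM lay among those of the other DMSO libraries (3.55 to 5.89 CPM over all 16) and below every tunicamycin library (at least 43.3 CPM).

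In parental cells, 6 of the 9 genes rose in tunicamycin and none fell. ERN1, EIF2AK3, ATF6, XBP1, FICD and CREB3L2 rose by 0.52 to 3.29 on the log2 scale, and for each of them all 4 tunicamycin libraries lay above all 4 DMSO libraries. How many of all genes separated in this way was not counted. ATF6B, MBTPS1 and MBTPS2 did not pass the test. Genes were called by the quasi-likelihood test of edgeR, at a Benjamini-Hochberg adjusted p under 0.05 over all genes tested. That rule called 25.9% of 14828 genes in parental cells, 12.1% as higher and 13.8% as lower. The median log2 change was 0.87 over the 9 genes and -0.01 over all genes tested. In bulk libraries, a transcript present in fewer cells and one at a lower level per cell cannot be told apart.

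**Figure D1:**
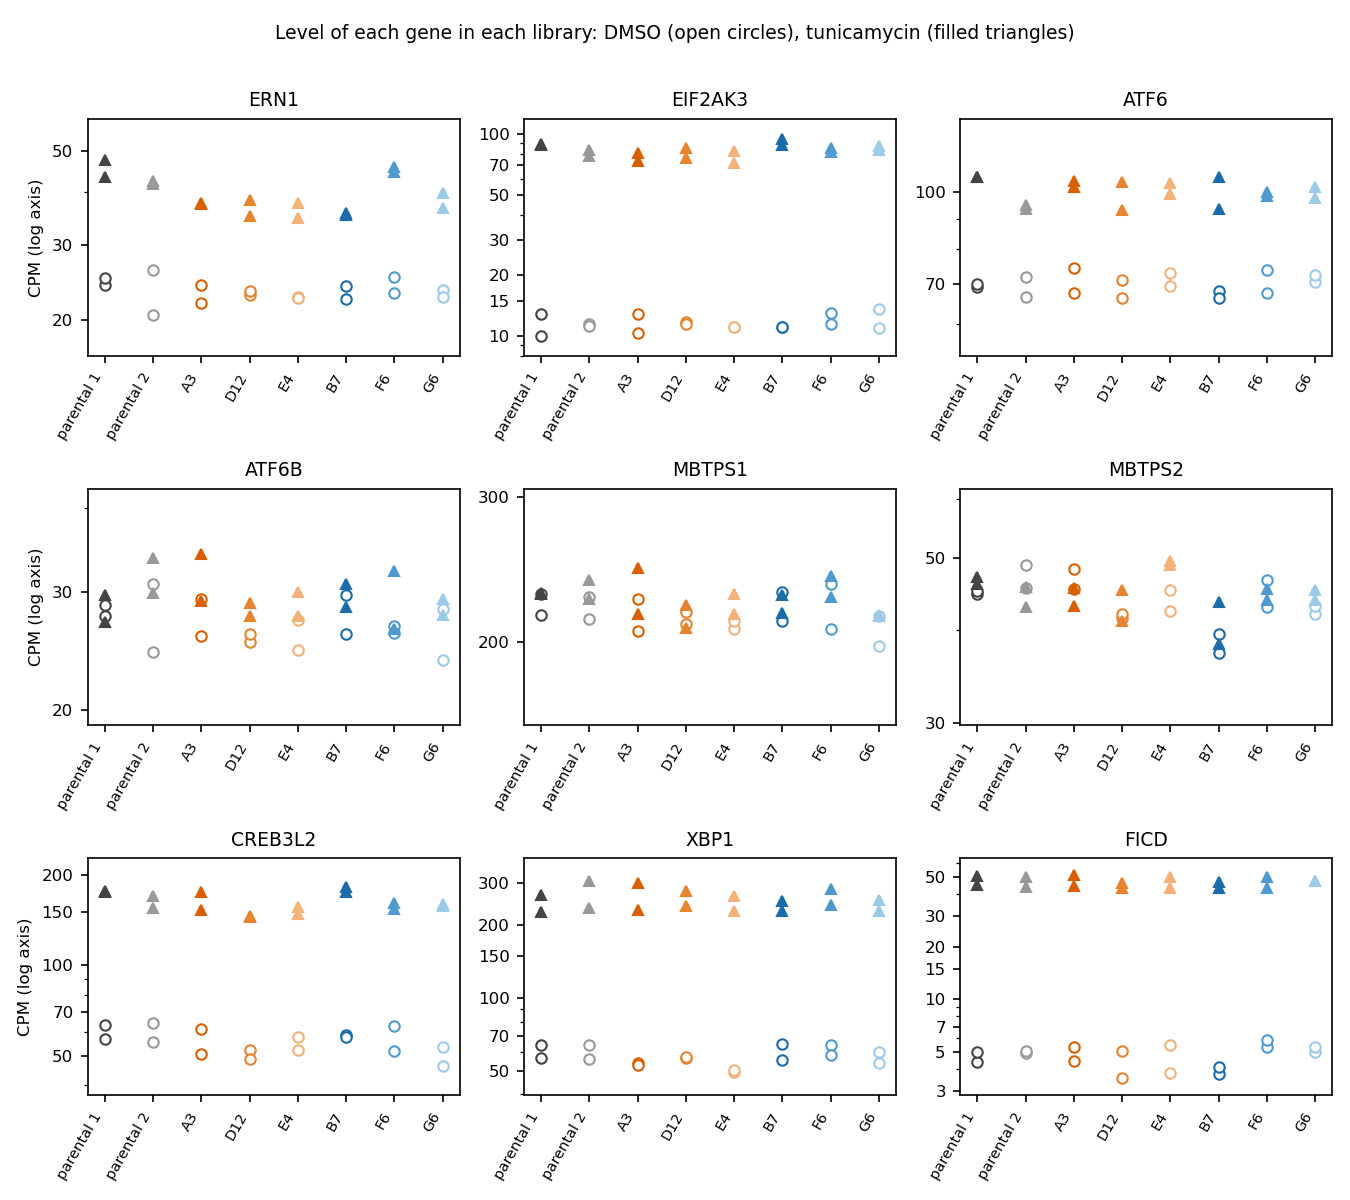
Level of each of the 9 genes in each of the 32 libraries, in CPM on a log axis, by line (horizontal axis); open circles are DMSO libraries and filled triangles tunicamycin libraries. ERN1, EIF2AK3, ATF6, CREB3L2, XBP1 and FICD have every tunicamycin library above every DMSO library, while ATF6B, MBTPS1 and MBTPS2 overlap.

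The sensor genes differed widely in how far their mRNA rose. ERN1 (chromosome 17, 64039142 to 64130819, minus strand, GRCh38) had parental DMSO levels of 24.2 and 25.0 CPM in sample 1 and 20.5 and 26.1 CPM in sample 2. In tunicamycin these were 43.4 and 47.6 CPM in sample 1 and 42.5 and 41.7 CPM in sample 2. All tunicamycin libraries were high and the groups did not overlap, with a log2 change of 0.87 (SE 0.0788, adjusted p = 2.8e-05 by edgeR). EIF2AK3 (chromosome 2, 88556741 to 88627576, minus strand) had 9.98, 12.9, 11.5 and 11.2 CPM in parental DMSO and 89.1, 88.4, 78.3 and 83.3 CPM in tunicamycin. That is a 7.44-fold ratio of means, the largest among the ER-membrane sensors, and a log2 change of 2.89 (SE 0.0829, adjusted p = 1.17e-08 by edgeR).

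ATF6 (chromosome 1, 161766294 to 161964070, plus strand) rose least among the 6 called genes. Its parental levels were 69.3, 70.0, 72.0 and 66.6 CPM in DMSO and 105.9, 105.7, 95.02 and 93.7 CPM in tunicamycin. Sample 1 stood above sample 2 in tunicamycin, and the DMSO libraries lay below both. The log2 change was 0.52 (SE 0.0543, adjusted p = 7.28e-05 by edgeR). ATF6B (chromosome 6, 32115264 to 32128253, minus strand) had 28.7, 27.6, 30.8 and 24.5 CPM in DMSO and 29.7, 27.1, 33.7 and 29.9 CPM in tunicamycin. Its groups overlapped, with a log2 difference of 0.10 (95% confidence interval -0.08 to 0.29, adjusted p = 0.44 by edgeR).

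XBP1 (chromosome 22, 28794555 to 28800597, minus strand) encodes the transcription factor whose mRNA ERN1 splices. Counts per gene do not separate spliced from unspliced XBP1 mRNA, so splicing was not measured here. The intron that IRE1 removes is shown because it is the stretch by which unspliced and spliced XBP1 mRNA differ. It is 26 bases long and lies within the coding sequence of exon 4 of the 5 exons of an annotated XBP1 transcript, at chr22:28796127-28796152 on the minus strand (GRCh38, GENCODE release 29). Bases repeat at its ends, so 7 placements give the same spliced sequence. The placement shown is the only one of these with CNG before and CAG after both cuts, the letters that IRE1 recognises, and it lies 5 bases upstream of the gap annotated in a transcript that lacks the intron. Another transcript has the gap shifted by 2 bases from that annotation. The intron is in capitals, with 18 bases of exon on each side.
XBP1 intron: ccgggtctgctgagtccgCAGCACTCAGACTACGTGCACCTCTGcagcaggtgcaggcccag

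The gene as a whole rose strongly. Parental XBP1 levels were 64.0, 56.4, 63.9 and 56.1 CPM in DMSO and 268, 226, 304 and 235 CPM in tunicamycin. The lowest tunicamycin library was far above the highest DMSO library, with a log2 change of 2.10 (SE 0.0908, adjusted p = 1.73e-07 by edgeR). In IGF2BP3 knockout cells XBP1 had a lowest, median and highest level of 49.7, 53.2 and 57.3 CPM in DMSO and of 229.8, 253 and 298 CPM in tunicamycin. In IGF2BP2 knockout cells these were 53.7, 59.1 and 64.5 CPM in DMSO and 229, 248 and 282 CPM in tunicamycin. The treatment groups were again separate in both knockouts, with log2 changes of 2.26 (SE 0.0645) and 2.07 (SE 0.0566).

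The proteases that process ATF6 showed no called change in mRNA level. MBTPS1 (chromosome 16, 84053761 to 84116906, minus strand) had 229, 215, 227 and 213 CPM in parental DMSO libraries and 229, 228, 238 and 225 CPM in tunicamycin. MBTPS2 (chromosome X, 21839636 to 21885424, plus strand) had 44.7, 45.1, 48.9 and 45.6 CPM in DMSO and 47.1, 46.2, 45.7 and 42.9 CPM in tunicamycin. Both pairs of groups overlapped. The log2 difference was 0.06 for MBTPS1 (95% confidence interval -0.05 to 0.16, adjusted p = 0.457) and -0.02 for MBTPS2 (-0.15 to 0.10, adjusted p = 0.826), both by edgeR.

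FICD (chromosome 12, 108515185 to 108525837, plus strand) showed the largest change of the 9. Its parental levels were 4.38, 5.00, 4.96 and 5.06 CPM in DMSO and 51.0, 44.9, 50.4 and 44.2 CPM in tunicamycin. The ratio of means was 9.82, and the log2 change was 3.29 (SE 0.0783, adjusted p = 3.85e-09 by edgeR). FICD shares its locus with SART3 on the opposite strand, which had a median of 123 CPM over the 32 libraries and a log2 change of 0.31 in parental tunicamycin (adjusted p = 0.00096 by edgeR). Whether the counting used the strand is not given in the sources used here, so the split of reads between the overlapping genes is uncertain. Likewise ATF6B overlaps TNXB (median 0.648 CPM) and the locus of MBTPS2 contains YY2 (median 2.84 CPM), on the same strand in each case.

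CREB3L2 (chromosome 7, 137874979 to 138002067, minus strand) had 63.4, 56.8, 64.6 and 55.8 CPM in parental DMSO libraries and 176, 177, 170.4 and 155 CPM in tunicamycin. The 4 tunicamycin libraries all stood high, with a log2 change of 1.49 (SE 0.0658, adjusted p = 2.08e-07 by edgeR).

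Levels of different genes were compared as CPM per kilobase of the union of annotated exons. In parental DMSO libraries MBTPS1 (21.6 ± 0.763) and XBP1 (19.8 ± 1.47) had the highest levels per kilobase, with overlapping libraries. ATF6 (8.80 ± 0.284), ATF6B (7.69 ± 0.729) and CREB3L2 (6.85 ± 0.512) followed, and neighbours in that order overlapped. MBTPS2 (5.16 ± 0.214) stood apart from both sides. ERN1 (2.21 ± 0.224) and EIF2AK3 (2.10 ± 0.220) overlapped each other, and FICD was lowest at 1.14 ± 0.0737 (SD, n = 4 for each gene). In tunicamycin XBP1 led at 85.4 ± 11.6 CPM per kilobase and MBTPS1 came next at 22.5 ± 0.530. CREB3L2 (19.3 ± 1.15) and EIF2AK3 (15.6 ± 0.925) now stood above ATF6 (12.7 ± 0.843) and FICD (11.2 ± 0.838), and of these only ATF6 and FICD overlapped. ATF6B (8.30 ± 0.748), MBTPS2 (5.09 ± 0.202) and ERN1 (4.03 ± 0.240) were at the foot, without overlap. The order depends on the length used. By the longest coding transcript, ATF6B (10.6) and MBTPS2 (10.3) stood above ATF6 (9.26) in DMSO.

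Promoter sequence was examined next, in RefSeq windows (GRCh38.p14) of 250 bases before to 50 after each annotated start, which existed for all 9 genes. The ER stress response element was searched on both strands as CCAAT, 9 bases of any kind, then CCACG. It was present in 2 of the 9 genes, XBP1 and FICD, and in 25 of 27305 genes with such a window (0.0916%). The cyclic AMP response element, TGACGTCA, was in the window of CREB3L2 and of 2.25% of all genes. The UPR element core, TGACGTGG, was in no window of the 9 genes and in 0.927% of all. The short motif CCACG, which is part of the ER stress response element, was in 5 of 9 genes and 42.1% of all, and ACGT, which is part of the other motifs, in 6 of 9 and 37.8%. The stretches of 100 bases before the start sites of XBP1, FICD and CREB3L2 that hold the longer motifs are shown because these are 3 of the 6 genes that rose. Capitals mark the motif, at -52 to -34 from the start site in XBP1 (chr22:28800570-28800669, minus strand), -154 to -136 in FICD (chr12:108515082-108515181, plus strand) and -179 to -172 in CREB3L2 (chr7:138002213-138002312, minus strand).
XBP1 promoter: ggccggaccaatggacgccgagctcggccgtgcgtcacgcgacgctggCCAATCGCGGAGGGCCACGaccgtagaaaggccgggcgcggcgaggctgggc
FICD promoter: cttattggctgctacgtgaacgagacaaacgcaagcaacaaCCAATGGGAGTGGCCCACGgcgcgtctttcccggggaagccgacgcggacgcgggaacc
CREB3L2 promoter: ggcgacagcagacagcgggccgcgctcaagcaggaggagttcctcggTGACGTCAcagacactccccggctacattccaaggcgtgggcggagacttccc

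A match is a run of letters and not a measured binding site. The windows of ERN1, EIF2AK3 and ATF6, which also rose, held neither of the longer elements shown. Of the 25 genes with the ER stress response element, 17 were tested in parental cells. Of these 17, 13 rose, 9 of them by more than 1 on the log2 scale, and none fell, against 12.1% of all genes tested that rose. Their median log2 change was 1.14. The 13 include XBP1 and FICD, the chaperones HSPA5 (3.35), HSP90B1 (1.66) and CALR (1.32), and CRELD2 (2.00).

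The same 6 genes rose in both knockouts. In IGF2BP3 knockout cells 7 of the 9 were called, all higher, against 32% of all 15074 genes (15.3% in the higher direction, 16.8% in the lower). In IGF2BP2 knockout cells 6 were called, all higher, against 38.2% of all 14952 genes (18.2% in the higher direction, 20.1% in the lower). The additional gene in IGF2BP3 knockout was ATF6B, with a lowest, median and highest level of 24.6, 25.9 and 29.3 CPM in DMSO and 27.6, 28.99 and 34.2 CPM in tunicamycin. These groups overlapped, with a log2 change of 0.16 (SE 0.0558, adjusted p = 0.0439 by edgeR). The call was lost with any of the clones left out (adjusted p = 0.0648 without A3, 0.143 without D12 and 0.158 without E4) and with no filter on low counts (0.194). In IGF2BP2 knockout the ATF6B difference was 0.13 (adjusted p = 0.128 by edgeR). The difference in ATF6B response between the knockout and parental cells was itself not called (0.06, 95% confidence interval -0.14 to 0.27, for IGF2BP3 knockout).

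In each of the 2 parental samples and 6 clones, the same 6 genes were called by edgeR, all higher. Of all 16274 genes tested, 16.7% and 13.9% were called in parental samples 1 and 2. The share was 13.8% in A3, 13.8% in D12, 12.2% in E4, 14.9% in B7, 15.2% in F6 and 15.8% in G6. The log2 change of FICD ran from 3.05 in F6 to 3.53 in B7 and that of EIF2AK3 from 2.74 in A3 to 3.04 in B7. XBP1 ran from 2.01 in B7 to 2.31 in A3, CREB3L2 from 1.43 in parental sample 2 to 1.66 in G6, and ATF6 from 0.44 in parental sample 2 to 0.60 in parental sample 1. Clones B7 and F6, which had the same guide, lay at opposite ends for ERN1, at 0.61 in B7 and 0.91 in F6. MBTPS2 changed sign between lines, from -0.09 in parental sample 2 to 0.16 in E4, and none of these values was called. A test of whether the response differed among the clones of a knockout called none of the 9 genes in IGF2BP3 knockout (0% of 15517 genes called) and none in IGF2BP2 knockout (0% of 15356). At an unadjusted p under 0.05 edgeR had 0 of the 9 genes in IGF2BP3 knockout and 1 in IGF2BP2 knockout, namely FICD. Of all genes, 93 and 222 had such a p. DESeq2 called none in either.

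**Figure D2:**
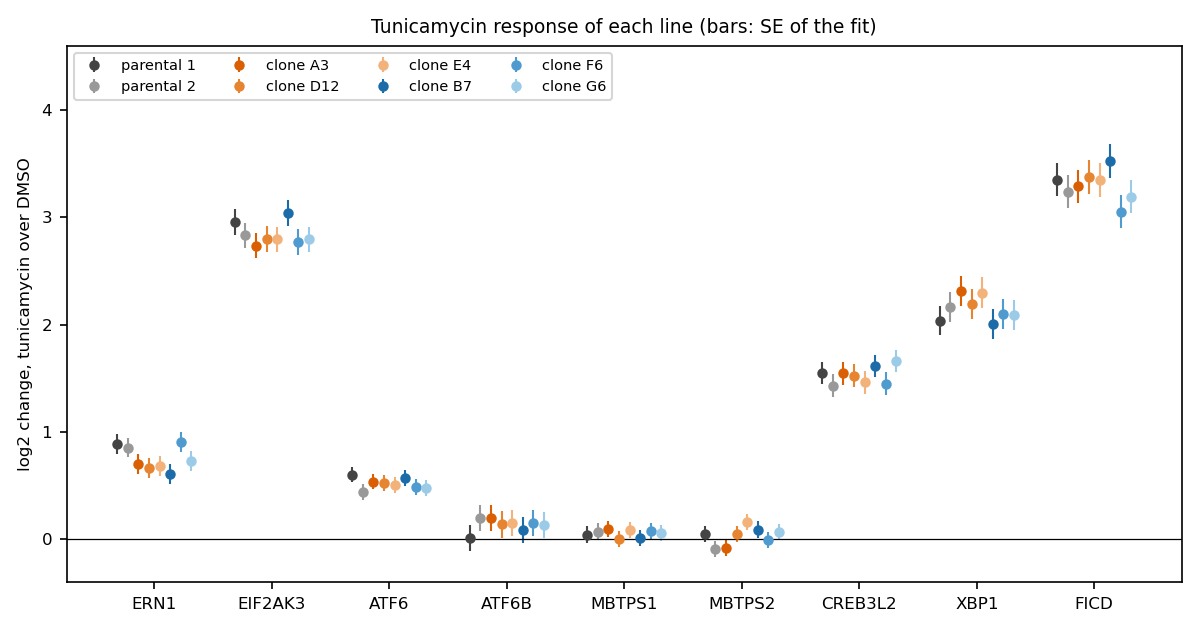
Log2 change in tunicamycin over DMSO of each of the 9 genes in each of the 8 lines; points are edgeR estimates and bars their SE. EIF2AK3, CREB3L2, XBP1 and FICD lie above 1 in every line, ERN1 and ATF6 lie between 0.44 and 0.91, and ATF6B, MBTPS1 and MBTPS2 lie near 0.

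Before any stress, none of the 9 genes was called between a knockout and parental cells. The knockout comparisons share the parental libraries. For IGF2BP3 knockout in DMSO, 1.61% of 14568 genes were called by edgeR and 0 of the 9. At an unadjusted p under 0.05 there were 1994 of all genes and 2 of the 9. The 2 were XBP1, with a log2 difference of -0.17 (95% confidence interval -0.29 to -0.04, adjusted p = 0.186), and CREB3L2, with -0.15 (-0.30 to -0.01, adjusted p = 0.314). XBP1 was at 49.7 to 57.3 CPM in the 6 knockout libraries and 56.1 to 64.0 CPM in the 4 parental ones, a narrow overlap. CREB3L2 was at 48.9 to 61.6 CPM against 55.8 to 64.6 CPM. For IGF2BP2 knockout in DMSO, 0.0137% of 14564 genes were called and 0 of the 9. At an unadjusted p under 0.05 there were 690 of all genes and 0 of the 9. The 9 differences there ran from -0.14 for MBTPS2 to 0.06 for EIF2AK3. Between the 2 knockouts in DMSO, 0.589% of 14250 genes and 0 of the 9 were called, with XBP1 lower in IGF2BP3 knockout by a value of -0.14 that missed the threshold (adjusted p = 0.255 by edgeR). DESeq2 also called 0 of the 9 in each of these DMSO comparisons.

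Under tunicamycin, ERN1 was the gene that differed most between IGF2BP3 knockout and parental cells. It had a lowest, median and highest level of 34.8, 37.5 and 38.3 CPM in the 6 IGF2BP3 knockout libraries, while the 4 parental libraries ranged from 41.7 to 47.6 CPM. The groups did not overlap, the only such case for the 9 genes in any comparison of genotypes within a treatment. Such separation was not counted over all genes, so it cannot be read as particular to ERN1. The log2 difference was -0.25 (SE 0.0616, 95% confidence interval -0.38 to -0.12) and did not pass edgeR's threshold (adjusted p = 0.112). In DMSO the ERN1 levels of the same groups overlapped, at 21.9 to 24.1 CPM and 20.5 to 26.1 CPM. DESeq2 called ERN1 in tunicamycin (adjusted p = 0.0191), and so did an edgeR fit of all 32 libraries (adjusted p = 0.0138). Both fits count the libraries of a clone as separate units. The 32-library fit measures only the spread between libraries of the same line and treatment, so differences between clones do not enter it. Over all alternatives the ERN1 difference ran from -0.27 to -0.20 and its adjusted p from 0.00275 to 0.276. It was called in 4 of 15 alternatives, these fits and those with a term for the replicate number. With counts summed per line, where each clone or parental sample is a single unit, ERN1 was not called. The share of all genes called is not given for any of these alternatives. Neither the calls nor the missing call can therefore be read as particular to ERN1.

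Among the other genes, CREB3L2 had a log2 difference of -0.14 in tunicamycin in IGF2BP3 knockout (adjusted p = 0.45 by edgeR). In all, edgeR called 0 of the 9 there against 0.718% of 14626 genes, and DESeq2 called 1. At an unadjusted p under 0.05 edgeR had 2 of the 9 and 1502 of all genes. In IGF2BP2 knockout under tunicamycin edgeR called 0 of the 9 against 0.00694% of 14419 genes, and DESeq2 called 0. At an unadjusted p under 0.05 edgeR had 0 of the 9 and 1005 of all genes. ERN1 was at -0.14 there (95% confidence interval -0.32 to 0.05), with B7 libraries at 35.3 and 35.6 CPM, G6 at 36.7 and 39.8 CPM and F6 at 45.9 and 44.7 CPM. F6 thus lay within the parental range and the other two clones below it. Between the knockouts in tunicamycin, 0.391% of 14066 genes and 0 of the 9 were called by edgeR, and 0 of the 9 by DESeq2. EIF2AK3 was among the 2073 of all genes with an unadjusted p under 0.05 there. Its log2 difference was -0.15 for IGF2BP3 against IGF2BP2 knockout (adjusted p = 0.251 by edgeR).

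**Figure D3:**
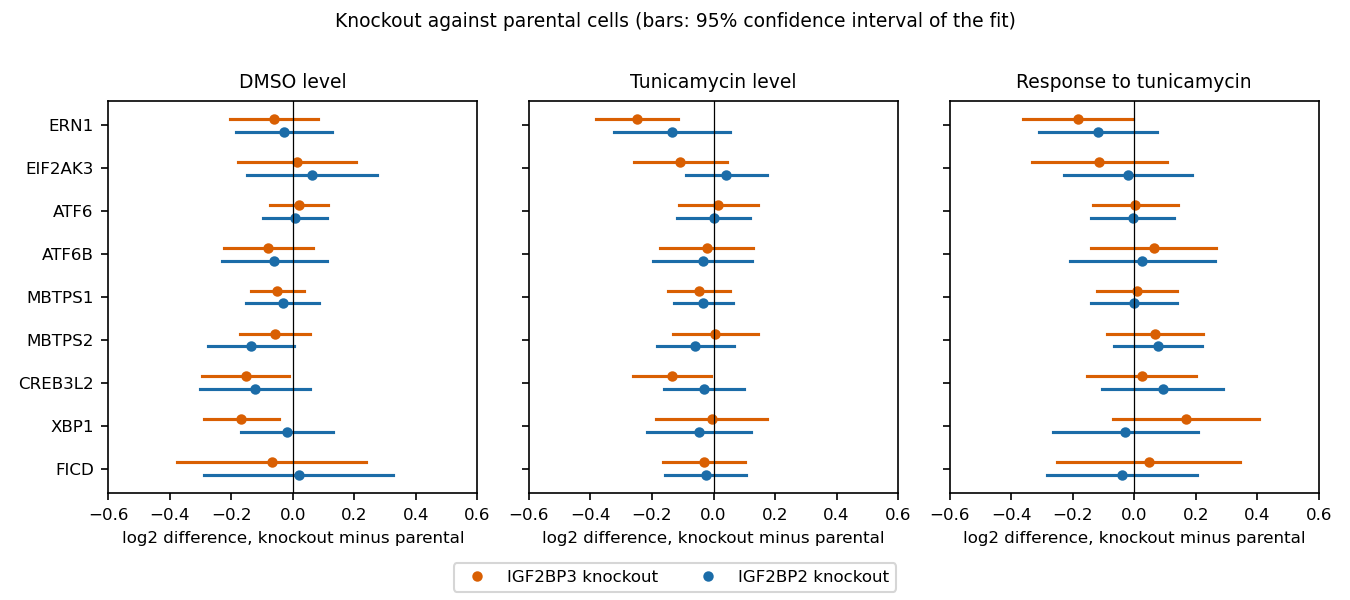
Log2 difference of each knockout from parental cells for the 9 genes, in DMSO, in tunicamycin and for the response to tunicamycin (interaction); points are edgeR estimates and bars 95% confidence intervals. ERN1 in IGF2BP3 knockout under tunicamycin lies at -0.25, and none of the differences passed the adjusted threshold.

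No difference in response between genotypes passed the threshold in the test of the interaction. For IGF2BP3 knockout against parental cells, 0% of 15586 genes and 0 of the 9 were called by edgeR. Of the 9 only ERN1 was among the 257 genes with an unadjusted p under 0.05. Its difference in log2 response was -0.18 (95% confidence interval -0.36 to -0.0035, adjusted p = 0.9997 by edgeR). The other 8 differences ran from -0.11 for EIF2AK3 to 0.17 for XBP1, and their 95% intervals reached down to -0.33 for EIF2AK3 and up to 0.41 for XBP1. For IGF2BP2 knockout, 0% of 15478 genes and 0 of the 9 were called, and the differences ran from -0.12 for ERN1 to 0.09 for CREB3L2. At an unadjusted p under 0.05 there were 219 of all genes and 0 of the 9. Between the knockouts, 0% of 15571 genes and 0 of the 9 were called. XBP1 had an unadjusted p of 0.0365 there by edgeR, with a response larger by 0.20 in IGF2BP3 knockout (95% confidence interval 0.01 to 0.39). Of all genes, 284 had an unadjusted p under 0.05 in that test. DESeq2 called 0 of the 9 in each of the 3 interactions. A p above the threshold does not show that the responses were alike, and the intervals give the sizes that remain possible.

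Clones of a knockout were also compared in level, with treatment as a covariate. Among the IGF2BP3 knockout clones 7.05% of 15074 genes and 0 of the 9 were called by edgeR, and DESeq2 called 0 of the 9. At an unadjusted p under 0.05 edgeR had 2914 of all genes and 0 of the 9. Among the IGF2BP2 knockout clones 24.6% of 14952 genes and 0 of the 9 were called, and DESeq2 called 0 of the 9. At an unadjusted p under 0.05 edgeR had 5358 of all genes and 3 of the 9, which are similar shares. The 3 were MBTPS2 (adjusted p = 0.0537), ERN1 (0.0593) and CREB3L2 (0.104). Leaving out single libraries moved them across the threshold. ERN1 was called without B7 DMSO replicate 2 (0.0343) or F6 DMSO replicate 2 (0.0196), MBTPS2 without B7 tunicamycin replicate 1 (0.0354), and CREB3L2 without F6 DMSO replicate 1 (0.0327). MBTPS2 was lowest in B7, at 37.3 and 39.5 CPM in DMSO, against 42.1 to 46.7 CPM in F6 and G6. In comparisons of a clone with parental cells in DMSO, the calls covered 1.55% of 16274 genes for A3, 1.49% for D12, 3.16% for E4, 5.23% for B7, 4.01% for F6 and 0.27% for G6. Of the 9 genes only MBTPS2 in B7 was called by edgeR, with a log2 difference of -0.26 (SE 0.0648, adjusted p = 0.0151). It no longer passed when replicate 1 of parental sample 2 in DMSO was left out (-0.24, adjusted p = 0.0764) or with no filter on low counts (adjusted p = 0.416). All other clones had values from -0.14 in D12 to 0.03 in A3 for MBTPS2.

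Genes around the 9 were taken from lists of partners and targets. Counts in these lists stand against 12.1% of all genes tested that rose and 13.8% that fell in parental tunicamycin, and the lists were not tested against each other or against other genes. In parental tunicamycin, all 18 tested XBP1 targets rose, with a median log2 change of 0.77 against -0.01 over all genes. DNAJB9, an ER co-chaperone that represses IRE1, rose most (4.04), followed by SYVN1 (2.84) and SEL1L (2.68), which form the ubiquitin ligase complex of ER-associated degradation, and the co-chaperone DNAJC3 (2.56). All 12 ATF6 targets rose (median 2.05), XBP1 among them, led by HERPUD1 of ER-associated degradation (5.27) and the chaperone HSPA5, also called BiP (3.35), with SDF2L1 at 2.54. The lists overlap, and SEL1L and DNAJB11 stand in both of these. Of 13 partners and transport factors of ATF6, 7 rose and 2 fell (median 0.21). Apart from HSPA5 and CALR (1.32), the largest changes were those of TXNDC12 (0.78, adjusted p = 0.0481 by edgeR) and PDIA5 (0.40), both of the disulfide isomerase family. NFYC, a subunit of the CCAAT-binding factor NF-Y, rose by 0.32, while NFYA (0.00) and NFYB (0.10) were not called.

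Of 16 tested splicing and IRE1 partners, 5 rose and 1 fell (median 0.10). The largest rises were those of DNAJB9 (4.04), the ER disulfide isomerase PDIA6 (0.95) and the translocon component SEC63 (0.78). RTCB, the ligase that joins the XBP1 exons, was not called (-0.06, adjusted p = 0.599 by edgeR), and neither were its partners DDX1 (0.10) and FAM98B (-0.10). TRAF2, the adaptor that links IRE1 to kinase signalling, fell by 0.67. Of 6 tested substrates of IRE1-dependent decay, SCARA3 fell by 0.66, PMP22 fell by 0.51 and the death receptor TNFRSF10B rose by 1.45. The best-known substrate, BLOC1S1, was at -0.57 with an SE of 0.389 and was not called (adjusted p = 0.342 by edgeR).

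Of 11 genes of the PERK arm and eIF2 alpha kinases, 7 rose and 1 fell (median 0.42). The transcription factor DDIT3 (CHOP) rose by 6.81, the phosphatase subunit PPP1R15A by 2.49 and ATF4 by 1.253. In contrast to EIF2AK3, the other eIF2 alpha kinases did not rise: EIF2AK2 fell by 0.30, and EIF2AK1 (0.02) and EIF2AK4 (-0.15, adjusted p = 0.0567 by edgeR) were not called. Of 8 clients and cofactors of the site-1 and site-2 proteases, SREBF1 rose by 0.40, and GNPTAB and SPRING1 fell by 0.24 and 0.24. SREBF2 (0.09) and SCAP (0.01) were not called. Both tested relatives of CREB3L2, CREB3 (0.40) and CREB3L4 (0.53), rose. Of 7 CREB3L2 targets 3 rose (median 0.18), namely SEC24D (1.76), ARF4 (0.54) and COPB1 (0.44), all of the vesicle coats or their regulation.

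**Figure D4:**
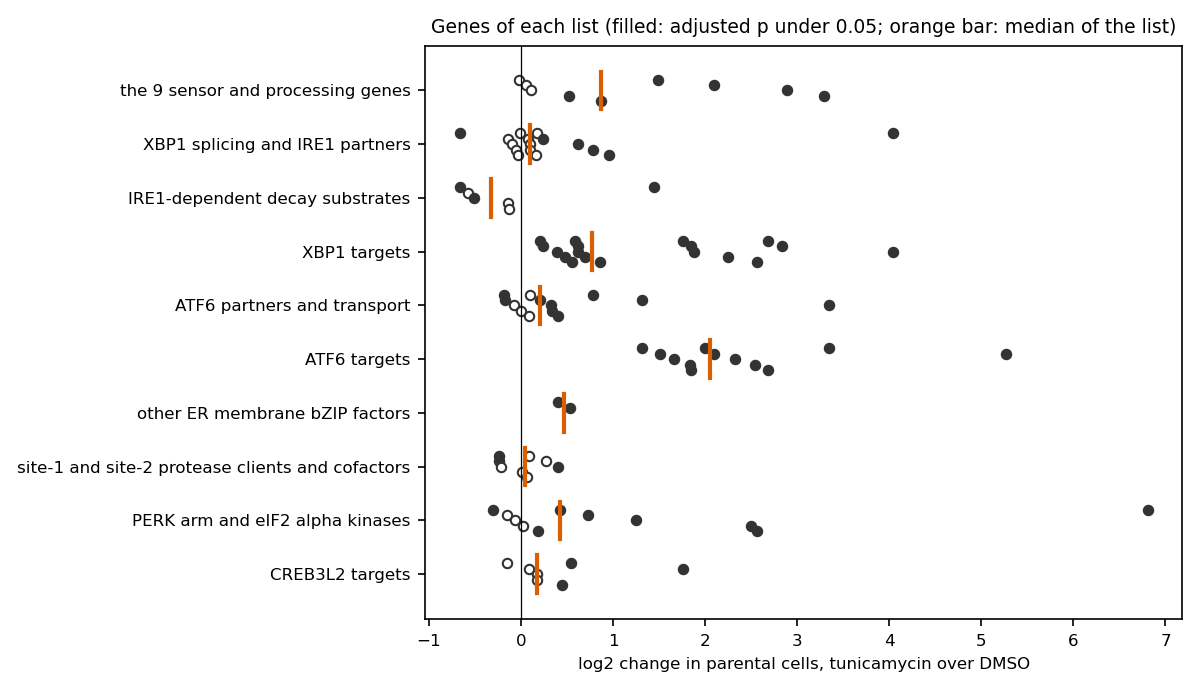
Log2 change in parental cells, tunicamycin over DMSO, of each tested gene in each list (rows); filled points have an adjusted p under 0.05 and the orange bar is the median of the list. XBP1 targets (median 0.77) and ATF6 targets (median 2.05) lie wholly above 0, while partners of IRE1 (median 0.10) and clients of the proteases (median 0.04) spread around it.

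In the knockouts, all 18 XBP1 targets and all 12 ATF6 targets rose again, with medians of 0.72 and 2.01 in IGF2BP3 knockout and of 0.82 and 2.06 in IGF2BP2 knockout. Of all genes tested, 15.3% rose and 16.8% fell in IGF2BP3 knockout, and 18.2% rose and 20.1% fell in IGF2BP2 knockout. The median over all genes was -0.01 in each. Of 6 tested substrates of IRE1-dependent decay, 1 rose and 4 fell in each knockout, where 1 rose and 2 fell in parental cells. Their median log2 change was -0.17 in IGF2BP3 knockout, -0.22 in IGF2BP2 knockout and -0.33 in parental cells. More calls in the knockouts thus did not go with larger falls, and the knockout tests held more libraries. No gene of any list differed in response between genotypes by edgeR. In DMSO 3 of 82 tested list genes (3.66%) were called between IGF2BP3 knockout and parental cells, against 1.61% of all genes. They were the kinase MAP3K5 (-0.38, adjusted p = 0.00358), COL6A1 (-0.21, adjusted p = 0.0189) and TNFRSF10B (0.23, adjusted p = 0.04), all by edgeR.

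Finally, the genes whose level followed each of the 6 called genes most closely were found by Pearson's r of log2 CPM over the 16 means of line and treatment, among 10045 genes with a mean of at least 5 CPM. The 16 points form a DMSO cluster and a tunicamycin cluster, which r carries, and it is given as a description. EIF2AK3 was most like HSPA5 (0.999), HERPUD1 (0.999) and SYVN1 (0.999). XBP1 was most like CHAC1 (0.998), HERPUD1 (0.997) and GMPPB (0.997). FICD was closest to STC2 (0.998), HSPA5 (0.997) and DNAJC3 (0.997), and CREB3L2 to MAGT1 (0.996), CRELD2 (0.995) and DNAJC3 (0.994). ATF6 was nearest to HSPA13 (0.992), DNAJC3 (0.992) and LYSMD3 (0.992), and ERN1 to BTG1 (0.986), UGDH (0.984) and NUS1 (0.982).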

How the data were processed

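The deposited table holds whole-number read counts per gene for 32 libraries. Poly(A) RNA and a directional kit were used for library preparation, per the labels' protocols. Per the submitters' processing notes, STAR 2.7.5c and the hg38 build were used. The counting tool, its annotation and its use of strand are not given in the sources used here. Groups came from the sample labels.

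Counts were tested with edgeR 4.0.16 in R 4.3.3 (TMM scaling, filterByExpr, quasi-likelihood test, Benjamini-Hochberg adjustment over all genes tested, threshold 0.05). Each fit held the libraries of the groups compared, with line as a term for tunicamycin effects and interactions, and treatment for comparisons among clones. Comparisons of genotypes within a treatment had no further term, so the libraries of a clone or parental sample counted as separate units. Their SEs, p-values and intervals do not take the clone as the unit. With counts summed per line, none of the 9 genes was called in any comparison of genotypes, in level or response. The share of all genes called by that fit is not given, and it has few units per group. The missing calls therefore show neither that the 9 genes were alike between genotypes nor that they differed from other genes. Single lines and single clones came from a fit of all 32 libraries. CPM values were scaled by TMM over all libraries. The SE was the log2 change divided by the square root of F. The scripts were tested on simulated data. Alternatives included DESeq2 1.42.0, other filters and scaling, the replicate block and leaving out libraries or clones. FICD had the lowest counts of the 9 genes in DMSO, but the SE of its change in parental cells (0.0783) was below that of XBP1 (0.0908).

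The 9 genes and all gene lists were chosen with earlier results of these data known. Up to 4 genes per list were named by rule, those with the largest absolute change among the called in parental cells. Other list genes named, such as BLOC1S1, RTCB and NFYA, and the genes with a promoter element, were chosen after their values were seen.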

Additional observations from a re-analysis of the deposited data

Results flagged for a closer look

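Of 54 groups of libraries (9 genes in 6 groups), 4 held a library far from the others by Dixon's test at the 95% level, and chance alone marks about 1 group in 20. In clone A3 under tunicamycin, replicate 1 was the highest IGF2BP3 knockout library for 2 genes. ATF6B stood at 34.2 CPM there, with the next library at 30.1 CPM. CREB3L2 stood at 176 CPM, with the next at 156 CPM. MBTPS2 was lowest in replicate 2 of clone B7 under tunicamycin, at 38.3 CPM, where the next IGF2BP2 knockout library had 43.6 CPM. FICD was lowest in parental sample 1, replicate 1 in DMSO, at 4.38 CPM, with the next at 4.96 CPM.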

How the results depend on the processing

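The 18 counts of called genes were recomputed under 298 alternatives, and 16 of these were not within 1.5 times the value reported. Between IGF2BP3 knockout and parental cells in tunicamycin, the count rose from 0 to 1 under DESeq2 and with all 32 libraries in one fit, the gene being ERN1. Among IGF2BP2 knockout clones it rose from 0 to 2 with a mean of at least 1 CPM as the filter (ERN1 and MBTPS2) and to 1 with all 32 libraries in one fit (MBTPS2), and it ran from 0 to 1 when libraries were left out in turn. For single clones against parental cells in DMSO it fell from 1 to 0 with no filter on low counts, and ran from 0 to 1 when libraries or clones were left out. The cause was not tested, except that leaving out clone B7 removes the only call. Of 2321 alternative values of single genes, leaving aside comparisons of single lines and single clones, no called value changed sign, 5 were no longer called and 19 became called. The 5 are all ATF6B in IGF2BP3 knockout, and its adjusted p with all 32 libraries in one fit was 0.0827. Of 1388 alternative values of uncalled comparisons, 125 had the other sign, so no direction can be read from those that lie near 0. The length of a transcript moved levels per kilobase.

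Replicate numbers are shared across lines, but no label says what a number shares. Genes detected ran from 21259 to 23139 in replicate 1 libraries and from 23423 to 24267 in replicate 2 libraries, without overlap. XBP1 in tunicamycin was at 253 to 304 CPM in replicate 1 libraries and at 226 to 243 CPM in replicate 2 libraries. The main fits had no term for the replicate number, so this difference is part of the spread they measure. Deviations of same-numbered libraries correlated in 118 of 120 pairs of cells at over 0.1 (lowest 0.0700, median 0.418). With the replicate block, the count rose from 0 to 1 between IGF2BP3 knockout and parental cells in tunicamycin (ERN1, adjusted p = 0.0211 by edgeR) and was also 1 under DESeq2 with the replicate block. Among IGF2BP2 knockout clones it rose to 4 (ERN1, MBTPS2, CREB3L2 and XBP1), and to 3 under DESeq2 with the replicate block. For single clones it rose to 4, namely MBTPS2 in B7, XBP1 in E4 and CREB3L2 in D12 and G6. ATF6B in IGF2BP2 knockout was called with the replicate block (adjusted p = 0.0444 by edgeR). Over all genes, the block raised the calls for tunicamycin in parental cells from 3837 to 6030. Among IGF2BP2 knockout clones the main fit already called 24.6% of all genes. For the alternatives, here and in all text above, the share of all genes called is not given. Their counts therefore cannot be read as particular to the 9 genes.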
